A study of Sus scrofa with 6 samples.

Results

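The genes described here are the subunits of the transcription factor NF-kB and the inhibitors that NF-kB itself switches on, in RNA of pig peripheral blood mononuclear cells (PBMCs). They were chosen by name. Of 10 gene symbols looked up in the symbol column of a deposited table of 11564 genes, 8 had a row: the subunit genes RELA, REL, NFKB1 and NFKB2, the IkB-type inhibitor genes NFKBIA, NFKBIE and NFKBIZ, and TNFAIP3. RELB and BIRC3 had no row under those symbols and were not analysed as members. All 8 genes passed the filter on low values, which asked for 1 FPKM or more in 3 or more libraries.

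NF-kB is a family of dimeric transcription factors held inactive in the cytoplasm of resting leukocytes by IkB proteins. Signals from TNF, interleukin-1, Toll-like or antigen receptors activate the IkB kinase (IKK) complex, IkB is degraded, and the freed dimers enter the nucleus and switch on inflammatory, survival and chemokine genes. Among the genes switched on are those of IkB proteins and of TNFAIP3 (A20), so the pathway makes its own brakes, and RNA of these inhibitors is commonly read as a sign of recent NF-kB activity.

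PBMCs, the lymphocytes and monocytes of blood, had been taken from 6-month-old Yorkshire pigs, 3 labelled wild type and 3 labelled Leptin-overexpressing, here called leptin transgenic. The transgene carries the pig leptin coding sequence under the pig leptin promoter. It sits on a plasmid that also encodes a green fluorescent protein, and was electroporated into fetal fibroblasts. The leptin pigs were cloned from selected cells by nuclear transfer, and nontransgenic pigs were the controls, for which a clonal origin is not given in the sources used here. The question behind the comparison is what an excess of leptin, a hormone of fat tissue that also acts on leukocytes, does to immune cells.

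LEP, the gene of the transgene, had 50.01 FPKM in wild type replicate 1 and 0.118 FPKM in wild type replicate 3, and 18.3 and 39.3 FPKM in leptin transgenic replicates 2 and 3. In wild type replicate 2 and leptin transgenic replicate 1 the table lists it at 0. LEP thus goes against the label in both replicate 1 libraries. Groups below are those of the labels. The sign of every difference, that of CCL4 and the other list genes included, is only as sure as these labels. No measurement other than LEP was used here to check them. The paper told leptin from control pigs by PCR and measured serum leptin by ELISA. Those results were not matched to these libraries here. All libraries were kept, and the differences of the members and of the list genes named for an unadjusted p under 0.05 are also given without these 2 libraries. The labelled cell type fits its markers: CD3E of T cells was at 213 to 372 FPKM, CD79A of B cells at 133 to 248 FPKM and CD14 of monocytes at 99.9 to 291 FPKM. FPKM (fragments scaled by transcript length and by library total) holds no read counts, so the depth of the libraries is unknown and precision rests on 3 libraries per label. The sum of FPKM over all genes ran from 444888 to 449653 under the wild type label and from 467276 to 503140 under the leptin label. The labels were compared by limma, on log2(FPKM + 1) and over 10735 genes. Log2 fold changes, always leptin transgenic minus wild type by label, are on that scale and come out too small for low genes. A gene is called at a Benjamini-Hochberg adjusted p under 0.05, which 0.00932% of all genes tested reached in limma. An exact two-sided permutation test of 3 against 3 libraries cannot give a p below 0.1. Replicates are libraries of different animals.

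RELA, which encodes p65, the subunit that carries the strongest activation domain of the common dimer, had the steadiest RNA of the 8 genes. RELA (ENSSSCG00000012981, chromosome 2 from 5698667 to 5707943; positions are those of the deposited table, and its genome build is not given in the sources used here) was at 112, 90.6 and 90.4 FPKM under the wild type label, against 97.3, 96.7 and 102 FPKM under the leptin label. All 3 of the latter lie inside the range of the wild type label. The highest RELA value was 1.24 times the lowest, a spread smaller than that of all but 9.24% of the genes tested. The log2 fold change was 0.020 (95% interval from -0.32 to 0.36), with a sign that turned to -0.045 under median-of-ratios scaling and also turned without wild type replicate 2, wild type replicate 3 or leptin transgenic replicate 3, so neither a rise nor a fall of RELA was detectable. Without both replicate 1 libraries it was 0.13.

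REL, which encodes c-Rel, a subunit used above all in lymphocytes, had the lowest level of the 8 genes and the largest negative difference. REL (ENSSSCG00000008388, chromosome 3 from 84967853 to 85003436) was at 13.2, 12.6 and 12.8 FPKM under the wild type label, against 9.35, 7.19 and 13.0 FPKM under the leptin label. The wild type values are close together, whereas leptin transgenic replicates 1 and 2 lie below them and replicate 3 lies among them, so the groups overlap. On the log2 scale the fold change was -0.39 (standard error 0.20, unadjusted p = 0.0919, adjusted p = 0.993, limma; exact permutation test, two-sided p = 0.3). It ranged from -0.59 without leptin transgenic replicate 3 (unadjusted p = 0.0154, limma) to -0.21 without leptin transgenic replicate 2, and was -0.36 without both replicate 1 libraries.

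NFKB1 and NFKB2 encode the precursors p105 and p100, which are processed to the DNA-binding subunits p50 and p52 and, uncut, act as inhibitors. NFKB1 (ENSSSCG00000030957, chromosome 8 from 127655428 to 127664001) was at 69.3, 76.3 and 68.5 FPKM under the wild type label, against 76.1, 55.03 and 65.4 FPKM under the leptin label, with the lowest value in leptin transgenic replicate 2. NFKB2 (ENSSSCG00000010580, chromosome 14 from 123260521 to 123270684) was at 24.4, 39.4 and 32.9 FPKM and at 30.2, 27.9 and 29.3 FPKM in the same order. Both the highest and the lowest NFKB2 values carry the wild type label, and the 3 values labelled leptin transgenic sit between them. The log2 fold changes were -0.13 for NFKB1 (95% interval from -0.51 to 0.24) and -0.11 for NFKB2 (95% interval from -0.55 to 0.32), both inside the spread between libraries. NFKB1 ranged from -0.24 without leptin transgenic replicate 1 to -0.014 without leptin transgenic replicate 2, and was -0.26 without both replicate 1 libraries. The sign of NFKB2 rests on wild type replicate 2, without which its log2 fold change was 0.039, whereas it was -0.30 without wild type replicate 1 and -0.32 without both replicate 1 libraries.

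Since FPKM is scaled by transcript length, the subunit genes can be set side by side within a library, as far as their gene models are complete. The NFKB1 row spans 8574 bp, and whether the models are complete was not checked. RELB had no row and is not in the shares. RELA made up 41.4% to 51.8% of the summed FPKM of the 4 subunit genes, NFKB1 29.5% to 35.7%, NFKB2 11.1% to 17.98% and REL 3.85% to 6.27%. The order RELA, NFKB1, NFKB2, REL therefore held in each of the 6 libraries. The sum itself was 219, 219 and 205 FPKM under the wild type label and 213, 187 and 209 FPKM under the leptin label, with overlapping groups (exact permutation test, two-sided p = 0.3).

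NFKBIA, which encodes IkB-alpha, the inhibitor that is rebuilt fastest after NF-kB activation, had the largest difference between the labels of the 8 genes. NFKBIA (ENSSSCG00000001952, chromosome 7 from 69417308 to 69420851) was at 114, 72.1 and 93.4 FPKM under the wild type label, against 145, 212 and 112 FPKM under the leptin label. Leptin transgenic replicates 1 and 2 exceed every wild type value, and leptin transgenic replicate 3 lies just under wild type replicate 1, so the groups overlap by that pair. The highest value was 2.94 times the lowest, a spread wider than that of 95.6% of the genes tested.

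The mean NFKBIA level was 93.2 ± 21.1 FPKM (SD, n = 3) under the wild type label and 156 ± 50.6 FPKM (SD, n = 3) under the leptin label, a ratio of means of 1.68. The log2 fold change was 0.72 (standard error 0.26, 95% interval from 0.11 to 1.32), with an unadjusted p of 0.0262 and an adjusted p of 0.993 in limma. The exact permutation test gave p = 0.2 (two-sided). NFKBIA is thus not called over all genes, and it is the 1 of the 8 genes with an unadjusted p under 0.05, a level that 1.98% of all genes tested reached in the higher direction and 1.19% in the lower, 3.18% in all. Without both replicate 1 libraries its log2 fold change was 0.90 (unadjusted p = 0.0391, adjusted p = 0.999, limma), and with each library left out in turn it stayed between 0.47 and 0.93. With median-of-ratios scaling it was 0.65 and the unadjusted p was 0.0729 (limma).

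NFKBIE encodes IkB-epsilon, a slower inhibitor of the same kind. NFKBIE (ENSSSCG00000001703, chromosome 7 from 45124043 to 45132794) was at 43.0, 39.5 and 38.0 FPKM under the wild type label, against 36.8, 53.6 and 37.1 FPKM under the leptin label. Leptin transgenic replicate 2 is the highest of all 6 and the other two of its label are the lowest of all 6. Its log2 fold change was 0.059 (95% interval from -0.36 to 0.48), and its sign turned without leptin transgenic replicate 2, to -0.12, and under median-of-ratios scaling, to -0.0052. It was 0.20 without both replicate 1 libraries.

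NFKBIZ encodes IkB-zeta, a nuclear member of the family that works with p50 at secondary response genes rather than holding dimers in the cytoplasm. NFKBIZ (ENSSSCG00000011951, chromosome 13 from 166744537 to 166776678) was at 44.3, 41.2 and 24.6 FPKM under the wild type label, against 41.3, 46.8 and 37.2 FPKM under the leptin label. The 1 low library is wild type replicate 3, and the other five values span 37.2 to 46.8 FPKM. The log2 fold change of 0.22 (standard error 0.23, unadjusted p = 0.375, adjusted p = 0.993, limma) became -0.038 without wild type replicate 3, so its sign rests on that library. It was 0.38 without both replicate 1 libraries.

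TNFAIP3 encodes A20, a ubiquitin-editing enzyme that takes apart the signalling complexes upstream of IKK. TNFAIP3 (ENSSSCG00000004154, chromosome 1 from 29825729 to 29841626) was at 20.8, 15.0 and 14.4 FPKM under the wild type label, against 18.3, 18.2 and 17.4 FPKM under the leptin label. The latter are nearly equal to each other and all lie inside the wild type range, since wild type replicate 1 is the highest of the 6. Its log2 fold change was 0.11 (95% interval from -0.28 to 0.51), and 0.26 without both replicate 1 libraries (unadjusted p = 0.189, limma). With 1 library left out it ranged from 0.022 without wild type replicate 3 to 0.27 without wild type replicate 1.

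BIRC3 encodes cIAP2, a ubiquitin ligase that keeps the TNF receptor complex alive and is a classical NF-kB target, and its close relative BIRC2 encodes cIAP1. The row ENSSSCG00000027529 has the symbol BIRC2 in the deposited table, and a reference table of pig gene names gives the same identifier as BIRC3, so which of the relatives it measures is not settled. It was at 27.5, 21.8 and 23.2 FPKM under the wild type label, against 23.4, 22.5 and 23.6 FPKM under the leptin label. The values overlap throughout, with a log2 fold change of -0.052 (95% interval from -0.39 to 0.28) that turned to 0.041 without wild type replicate 1 and to 0.033 without both replicate 1 libraries.

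**Figure D1:**
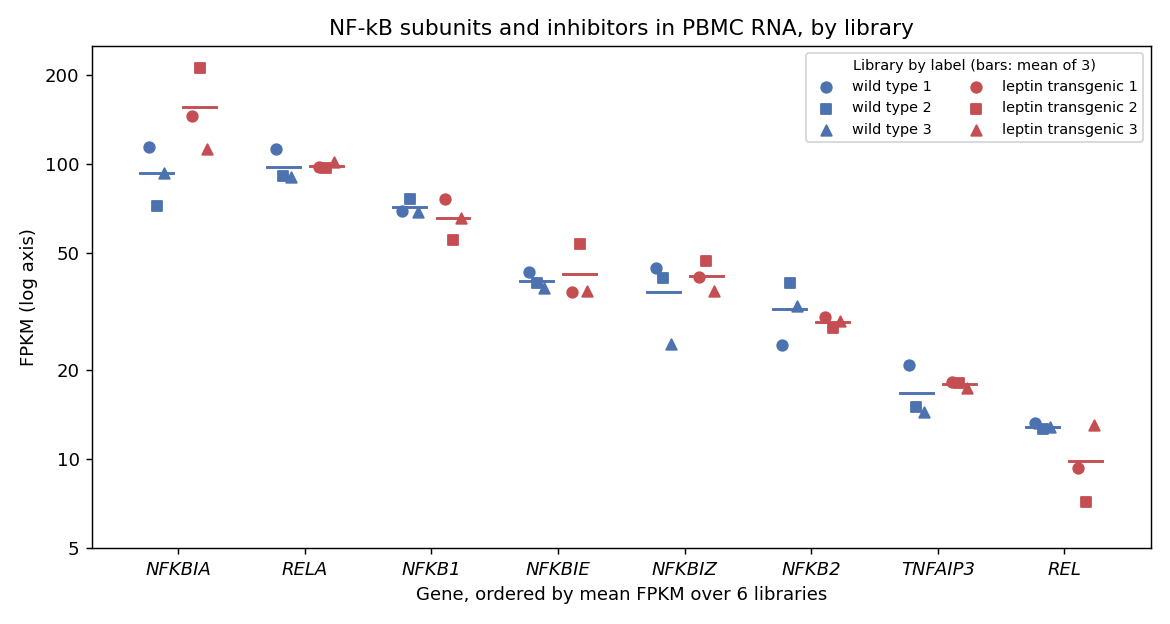
FPKM (vertical axis, log scale) of the 8 genes, ordered by their mean over 6 libraries, with 1 point per library and a bar at the mean of each label. NFKBIA is the gene with the widest spread, from 72.1 to 212 FPKM, and RELA the one with the narrowest, from 90.4 to 112 FPKM.

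By mean level over the 6 libraries the order was NFKBIA (125 FPKM), RELA (98.1), NFKB1 (68.4), NFKBIE (41.3), NFKBIZ (39.2), NFKB2 (30.7), TNFAIP3 (17.4) and REL (11.4). NFKBIA stood at the 94.9th percentile of mean level among all 11564 genes and REL at the 59.1st. Some neighbours in this order are not separated by their spread: NFKBIA was above RELA in 5 of 6 libraries, NFKBIE above NFKBIZ in 2 of 6 and NFKBIZ above NFKB2 in 5 of 6. RELA was above NFKB1, NFKB1 above NFKBIE, NFKB2 above TNFAIP3 and TNFAIP3 above REL in each of the 6 libraries, with no overlap of their ranges.

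The 8 genes did not go up or down together from library to library. Leptin transgenic replicate 2 had the highest NFKBIA, NFKBIE and NFKBIZ and at the same time the lowest REL and NFKB1. Wild type replicate 1, the library labelled wild type with LEP RNA, had the highest RELA, REL and TNFAIP3 and the lowest NFKB2. Wild type replicate 3 had the lowest RELA, NFKBIZ and TNFAIP3, and wild type replicate 2 had the highest NFKB1 and NFKB2 and the lowest NFKBIA. The number of genes above their own mean was 6, 4 and 3 of 8 under the wild type label and 4, 4 and 3 of 8 under the leptin label.

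**Figure D2:**
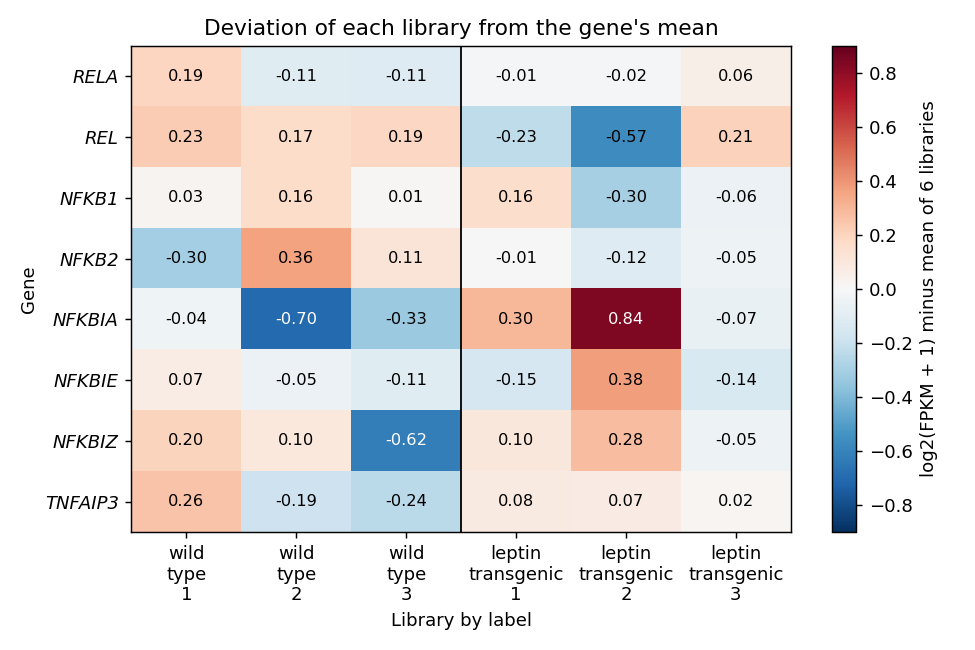
Deviation of each library (columns, by label) from the gene's own mean over the 6 libraries (rows), in log2(FPKM + 1), printed in each cell and coloured from blue (below) to red (above). The largest departures are those of NFKBIA in leptin transgenic replicate 2 (0.84) and in wild type replicate 2 (-0.70).

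RNA of cell type markers also differed between these libraries. The summed FPKM of the monocyte markers (7 of 8 symbols found, in 8 rows, none at 0 in any library) was 921, 484 and 417 under the wild type label and 564, 933 and 669 under the leptin label. The sum was highest in wild type replicate 1 and leptin transgenic replicate 2, and each had the highest NFKBIA of its label. Among the other four libraries, the one of each label with the larger sum had less NFKBIA. LYZ and CD14 make up most of the sum, at 418 and 291 FPKM in wild type replicate 1 and 442 and 263 FPKM in leptin transgenic replicate 2, and other monocyte markers had another order, such as CSF1R, which was highest in leptin transgenic replicate 1 (73.8 FPKM). T cell markers (12 of 12 symbols found, none at 0) summed to 871 to 1177 under the wild type label and to 770 to 1318 under the leptin label. The library with the lowest REL, leptin transgenic replicate 2, had the lowest of these sums, and that with the next lowest REL, leptin transgenic replicate 1, had a sum of 1292. The summed neutrophil markers (8 of 13 found, none at 0) ranged from 419 to 3534 and from 417 to 1280, and the sum was highest in wild type replicate 1. S100A8, S100A9 and S100A12 make up most of it there, at 699, 1031 and 1702 FPKM. MMP8 and LTF were also highest in that library. By contrast, MMP9 and both ARG1 rows were highest in leptin transgenic replicate 2, and ELANE in leptin transgenic replicate 1. The summed levels overlap between the labels for each of these lists. Their part in the values of the 8 genes was not tested, and in RNA of mixed cells fewer cells of a type and less RNA per cell cannot be told apart.

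Over the 8 genes, 5 were higher and 3 lower under the leptin label, 62.5% higher against 63.1% of all genes tested, and with median-of-ratios scaling 3 were higher and 5 lower, 37.5% higher against 50.5% of all genes tested. The median log2 fold change was 0.040 for the 8 genes and 0.059 for all genes tested. For the 8 genes it turned to -0.025 with median-of-ratios scaling and ranged from -0.035 without wild type replicate 3 to 0.12 without wild type replicate 1. None (0 of 8) was called at an adjusted p under 0.05 in limma, and 1 had an unadjusted p under 0.05. In none of the 8 did the libraries of a label lie entirely above or below the others, as they did for 7.63% of all genes tested. By role, the 3 IkB-type genes had log2 fold changes from 0.059 to 0.72, whereas those of the 4 subunit genes ran from -0.39 to 0.020. The difference between the roles was not tested, and 4 of these 7 signs are not stable: those of NFKBIE and RELA turn with the scaling and with a library left out, and those of NFKBIZ and NFKB2 with a library left out.

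**Figure D3:**
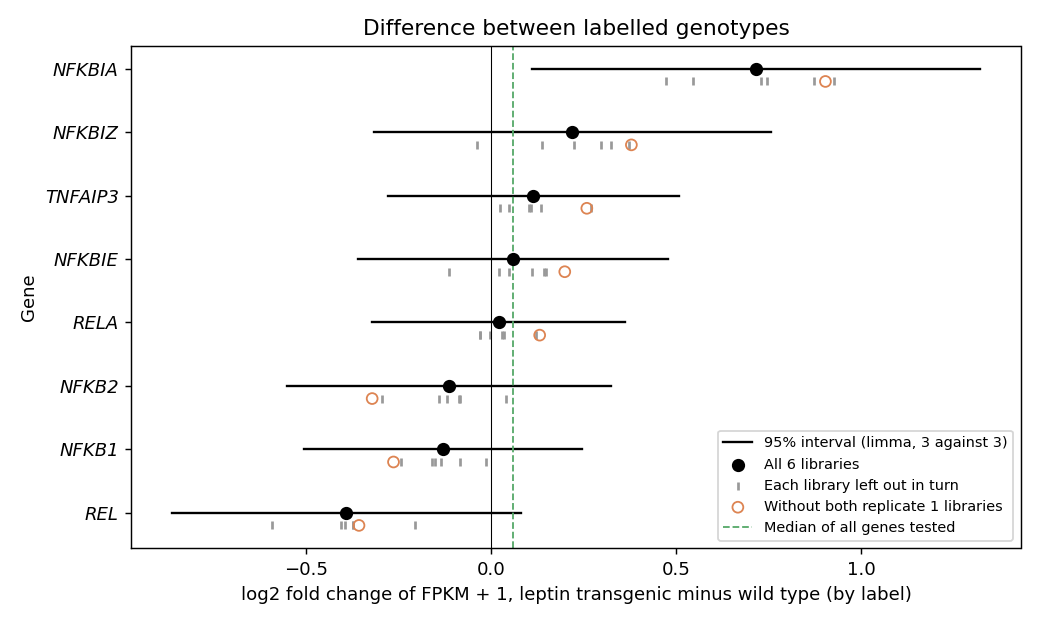
Log2 fold change of FPKM + 1 (horizontal axis, leptin transgenic minus wild type by label) of the 8 genes with its 95% interval from limma; ticks give the value with each library left out, open circles the value without both replicate 1 libraries, and the dashed line the median of all genes tested (0.059). NFKBIA, at 0.72, is the gene whose interval lies wholly above zero.

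A ratio of 2 genes within a library does not depend on how libraries are scaled. All 16 pairs of an inhibitor gene (NFKBIA, NFKBIE, NFKBIZ, TNFAIP3) and a subunit gene were formed after the single values had been seen, and 3 of them did not overlap between the labels, all with NFKBIA as the inhibitor. NFKBIA per RELA was 1.02, 0.795 and 1.03 under the wild type label and 1.49, 2.19 and 1.11 under the leptin label. The lowest of the latter is thus just above the highest of the former, and the log2 difference was 0.70 (exact permutation test, two-sided p = 0.1, adjusted over the 16 pairs 0.533).

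NFKBIA per NFKB1 was 1.65, 0.945 and 1.36 against 1.90, 3.84 and 1.72 in the same order, a log2 difference of 0.85. NFKBIA per REL was 8.63, 5.71 and 7.28 against 15.5, 29.4 and 8.64, a log2 difference of 1.15, with leptin transgenic replicate 3 and wild type replicate 1 almost equal. NFKBIA per NFKB2 overlapped, at 4.69, 1.83 and 2.84 against 4.79, 7.59 and 3.84. Each of these has 0.1 as the smallest p possible, and no pair passes 0.05. Among all other genes tested, a ratio that was higher in each library labelled leptin transgenic was found for 1.66% with RELA as the denominator, 9.58% with NFKB1, 11.8% with NFKB2 and 17.3% with REL, so this separation was least frequent for the ratio to RELA. Without both replicate 1 libraries the log2 differences were 0.78 to RELA, 1.18 to NFKB1 and 1.31 to REL, and without leptin transgenic replicate 2 they were 0.44, 0.49 and 0.70.

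**Figure D4:**
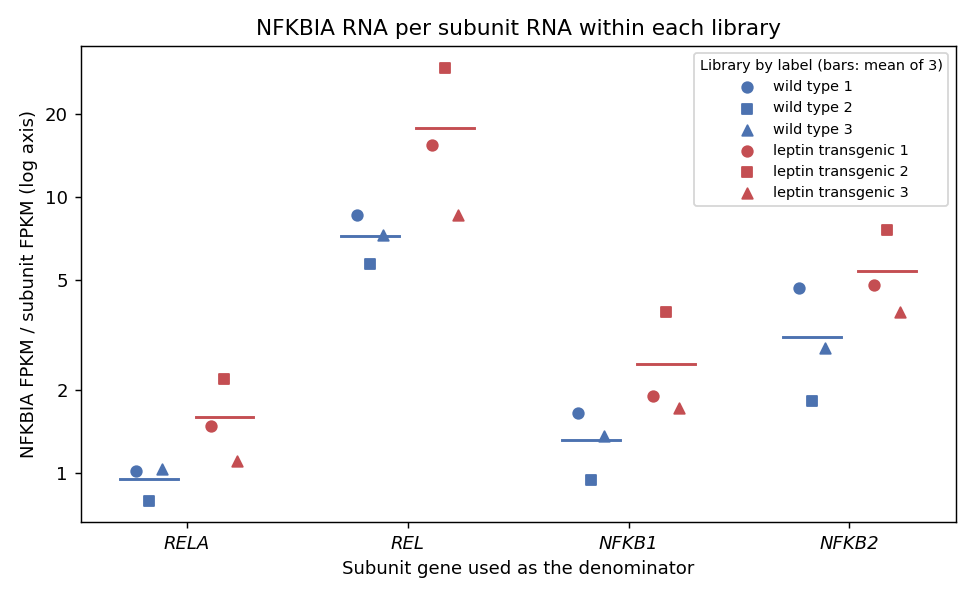
NFKBIA FPKM divided by the FPKM of each subunit gene (vertical axis, log scale), 1 point per library, with bars at the mean of each label. The points of the labels separate for RELA, REL and NFKB1 and overlap for NFKB2; the gap for REL, 8.63 against 8.64, is almost nil.

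The genes nearest in library profile were sought for the 3 genes with the largest range, among 8527 tested genes with a symbol, by the root mean square difference of the centred log2(FPKM + 1) over 6 libraries. Nearest to NFKBIA were IPO11 (0.132), AZU1 (0.150), PKIG (0.179), OAF (0.190) and ENPP1 (0.195), against a range of 1.54 for NFKBIA itself. Nearest to NFKBIZ were MRAS (0.081), CYBRD1 (0.086), SCARB2 (0.102), PTGIR (0.111) and ANXA5 (0.114), and nearest to REL were XIAP (0.075), POU2F1 (0.077), LCOR (0.083), INSRR (0.085) and ARNT (0.095). After median-of-ratios scaling 4 of the 5 genes for NFKBIA, 5 of 5 for NFKBIZ and 4 of 5 for REL were again among the nearest. No other of the 8 genes is among them. These names are a description over 6 libraries.

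The rest of the pathway was followed with a list of 88 symbols, of which 68 gene rows were tested. In all, 37 (54.4%, against 63.1% of all genes tested) were higher and 31 lower under the leptin label. With median-of-ratios scaling 28 (41.2%, against 50.5% of all genes tested) were higher and 40 lower. As deposited, the median log2 fold change was 0.015 against 0.059 for all genes tested. With limma 0 of the 68 were called at an adjusted p under 0.05, and 3 had an unadjusted p under 0.05, all higher: TNF, COMMD1 and NFKBID. That is 4.41% of the list against 3.18% of all genes tested, a share near the background. Without both replicate 1 libraries 0 were higher and 1 was lower at that level; without wild type replicate 2 the higher count was 1, and without wild type replicate 3 it was 5 with 2 lower. Without wild type replicate 3 the counts over all genes also went up, from 213 higher and 128 lower to 608 and 238 of 10588 genes.

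TNF, the ligand that starts the canonical pathway and is also its target, was at 18.4, 8.76 and 35.9 FPKM under the wild type label, against 43.3, 47.5 and 46.6 FPKM under the leptin label (log2 fold change 1.29, adjusted p = 0.993, limma). With 1 library left out this ranged from 0.81, without wild type replicate 2, to 1.77, and without both replicate 1 libraries it was 1.34 (unadjusted p = 0.0683, limma). The other ligands were closer to even, such as LTB (lymphotoxin beta) with a log2 fold change of 0.28 and TNFSF14 (LIGHT) with 0.22. Among 11 receptor rows 5 were higher and 6 lower, and 0 had an unadjusted p under 0.05 in limma. Their widest differences were IL1RAP, the co-receptor of interleukin-1, at -0.85 (unadjusted p = 0.135, limma), and TLR4, the receptor of bacterial lipopolysaccharide, at -0.77 (unadjusted p = 0.209, limma). TNFRSF1A, the main TNF receptor, was at 75.7 to 124 FPKM with a log2 fold change of -0.020.

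The IKK group was near even. IKBKB, the kinase subunit that marks IkB-alpha for destruction, was at 44.3 to 60.9 FPKM (log2 fold change 0.077), its partner CHUK at 11.0 to 14.9 FPKM (-0.12) and the scaffold IKBKG at 128 to 221 FPKM (-0.082). All 6 rows of this group, which includes IKBKAP by its old name, were within 0.12 of zero on the log2 scale, and limma gave 0 of 6 an unadjusted p under 0.05. Among 26 adaptors and ubiquitin ligases 13 were higher and 13 lower, from -0.30 to 0.41, again with 0 under that level. MYD88, the adaptor of Toll-like and interleukin-1 receptors, was at 166 to 257 FPKM (-0.13), and MAP3K14, the kinase of the noncanonical pathway that drives processing of NFKB2, was at 39.6 to 45.7 FPKM (-0.063).

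Of the IkB family outside the members, 3 of 4 rows were higher. NFKBID, which encodes the nuclear inhibitor IkB-NS, was at 25.8, 25.9 and 29.5 FPKM under the wild type label, against 35.2, 37.1 and 31.8 FPKM under the leptin label. The groups do not overlap, and the log2 fold change was 0.34 (standard error 0.14, unadjusted p = 0.0423, adjusted p = 0.993, limma), or 0.30 without both replicate 1 libraries (unadjusted p = 0.168, limma). Over the 6 fits that left out 1 library, the value for NFKBID ran from 0.30 to 0.41. The fit without wild type replicate 3 gave it an unadjusted p under 0.05 in limma, and the others did not. NFKBIB (IkB-beta) had a log2 fold change of 0.12 without overlap and NFKBIL1 one of 0.24 with overlap, whereas BCL3, a nuclear IkB-type coactivator, was at -0.38 (unadjusted p = 0.207, limma). Among 13 other negative regulators 7 were higher and 6 lower. COMMD1, which helps to remove RELA from chromatin, was at 14.04, 11.0 and 15.0 against 19.6, 16.7 and 18.6 FPKM (log2 fold change 0.43, unadjusted p = 0.0283, adjusted p = 0.993, limma). It was 0.42 without both replicate 1 libraries (unadjusted p = 0.0995, limma) and missed an unadjusted p under 0.05 also without wild type replicate 2, where it was 0.31, and without leptin transgenic replicate 1 or 3. TNIP1, the partner of A20, was at 71.5 to 109 FPKM with a log2 fold change of -0.14.

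A list of 64 textbook NF-kB targets, 13 of its symbols shared with the pathway list, gave 48 tested rows, of which 29 were higher and 19 lower, 60.4% higher against 63.1% of all genes tested. With median-of-ratios scaling 25 were higher and 23 lower, 52.1% higher against 50.5%. The median log2 fold change was 0.090, or 0.0079 without leptin transgenic replicate 3, against 0.059 for all genes tested. With limma 0 were called at an adjusted p under 0.05, while 5 were higher and 1 lower at an unadjusted p under 0.05, which is 12.5% of the list against 3.18% of all genes tested (without wild type replicate 3 the lower count was 3). The list was chosen with earlier results of these data known. This share and the list's counts without overlap given below are therefore descriptions, and whether they exceed those of all genes was not tested. The 5 were CCL4, IER3, TNF, PLAU and NFKBID, and the lower gene was CD80.

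CCL4, a chemokine of activated monocytes and lymphocytes, was at 16.4, 18.1 and 9.34 FPKM under the wild type label, against 53.7, 133 and 65.7 FPKM under the leptin label (log2 fold change 2.38, adjusted p = 0.897, limma). IER3, an early stress response gene, was at 8.14, 3.22 and 6.74 against 13.3, 23.7 and 9.56 FPKM (1.22, adjusted p = 0.993, limma). As with NFKBIA, the highest value of both genes was that of leptin transgenic replicate 2. PLAU, which encodes urokinase, was at 6.62, 8.66 and 8.65 against 10.6, 9.92 and 15.5 FPKM (0.52), and CD80, a costimulatory ligand of antigen-presenting cells, at 12.1, 16.0 and 16.4 against 10.1, 7.60 and 10.6 FPKM (-0.60). Without both replicate 1 libraries the log2 fold changes were 2.75 for CCL4, 1.499 for IER3, 0.48 for PLAU (unadjusted p = 0.105, limma) and -0.78 for CD80. With 1 library left out they ranged from 1.9995 to 2.64 for CCL4, from 0.88 to 1.49 for IER3 and from -0.73 to -0.47 for CD80, each with an unadjusted p under 0.05. PLAU ranged from 0.34 without leptin transgenic replicate 3 (unadjusted p = 0.131, limma) to 0.64, and was 0.41 without wild type replicate 1 (unadjusted p = 0.0975, limma). In these 4 genes the labels do not overlap, also with median-of-ratios scaling. CD86, the other costimulatory ligand on the list, did not overlap either, at 29.6, 30.3 and 26.8 against 24.5, 25.7 and 22.2 FPKM (-0.25, unadjusted p = 0.113, limma), which with TNF, NFKBID and NFKBIB makes 6 higher and 2 lower of the 48 target rows without overlap, against 7.63% of all genes tested. The labels overlapped for the rest, such as SOD2, the mitochondrial superoxide dismutase (-0.45, unadjusted p = 0.278, limma), and ICAM1, an adhesion receptor (0.13, unadjusted p = 0.549, limma). They also overlapped for the chemokine genes CXCL2 (1.23, unadjusted p = 0.0599, limma) and CCL3L1 (0.72, unadjusted p = 0.154, limma).

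**Figure D5:**
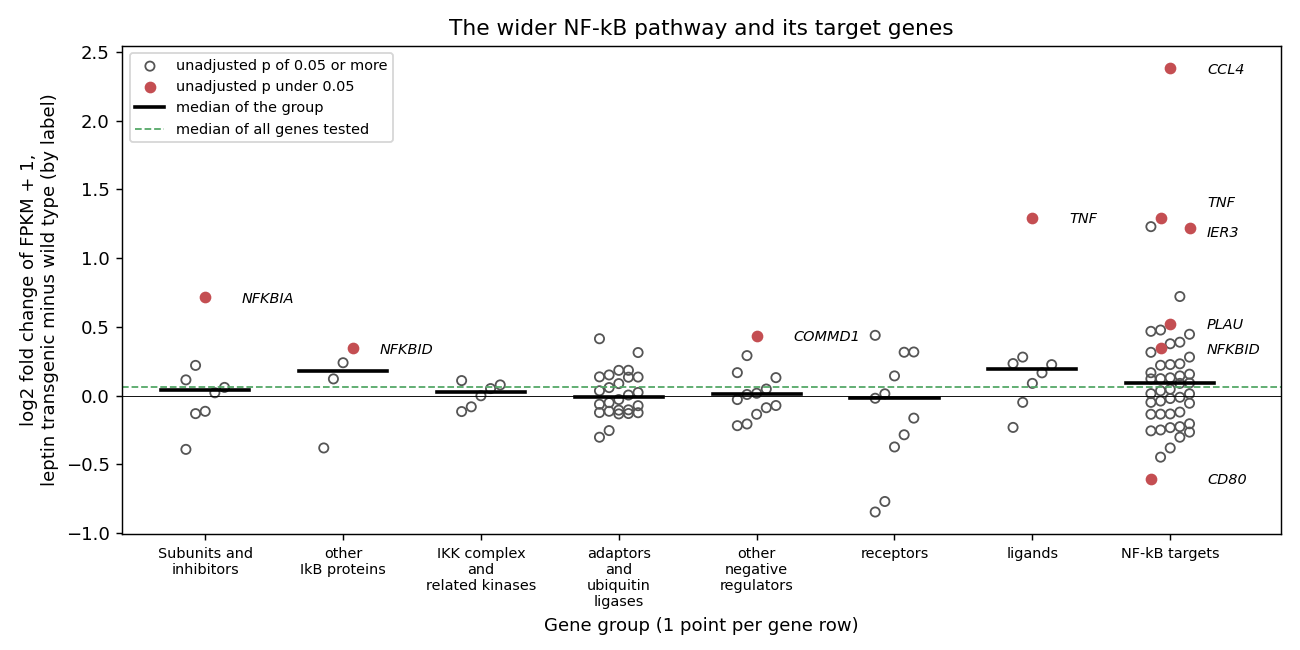
Log2 fold change of FPKM + 1 (vertical axis, leptin transgenic minus wild type by label), 1 point per gene row, for the 8 genes, the groups of the pathway list and the target list; filled points have an unadjusted p under 0.05 in limma, bars are group medians and the dashed line is the median of all genes tested (0.059). Filled points stand in the inhibitor, ligand, negative regulator and target columns, led by CCL4 at 2.38, and none stands among the IKK, adaptor or receptor genes.

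Immediate-early genes, which answer cell handling as well as stimulation, were also mostly higher under the leptin label. Of 20 symbols 16 were found, in 17 rows with none at 0, and 14 of the 17 rows were higher, against 63.1% of all genes tested, with a median log2 fold change of 0.48. An unadjusted p under 0.05 in limma was reached by 3 of the 17 rows, against 3.18% of all genes tested. They are those of IER3 and both rows listed as ZFP36, which share a symbol and may share reads. IER3, JUNB and CD69 are also on the target list, so the lists are not independent. These counts are of the values as deposited, and with median-of-ratios scaling 50.5% of all genes tested were higher. The summed FPKM of the immediate-early genes was 3191, 2583 and 1864 under the wild type label and 2620, 3115 and 3456 under the leptin label, so the sums overlap. Their part in the NFKBIA values was not tested.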

How the data were processed

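PBMC RNA of 6 pigs was measured by RNA-seq, and the codes in the column names, which are also in the sample descriptions, tied columns to labels. The authors deposited FPKM values, 1 per gene and library; the paper names Bowtie and RSEM, whereas the submitters' processing notes name STAR 2.5, Cuffnorm and DESeq 1.22.1, so which programs made these values is not settled. The table also holds the authors' own fold changes, p-values and FDR, which were not used. No read counts are given, so no count model was run.

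FPKM was tested as log2(FPKM + 1) with limma 3.58.1 in R 4.3.3 (lmFit and eBayes, genotype only, two-sided, Benjamini-Hochberg over 10735 genes). Where the table gave no symbol (4000 rows), one was taken from a reference table of gene names (1504 rows). Exact permutation tests used SciPy 1.17.1 under Python 3.11.15. The fit was first tested on simulated data. Replicate libraries are of different animals.

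The members and lists were chosen with earlier results of these data known. Named from the lists are the genes with an unadjusted p under 0.05 in limma (at most 8 per list), some others as examples chosen after their values were seen, and the 5 nearest profiles of 3 genes. Alternatives were the pseudocount, the filter, median-of-ratios scaling, unmoderated variance, trend and robust limma, a replicate block and libraries left out.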

Additional observations from a re-analysis of the deposited data

How the results depend on the processing

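The log2 fold change of NFKBIA kept its sign and stayed uncalled under all 14 alternatives, from 0.47 to 0.93, with an unadjusted p from 0.00738 to 0.0926 and an adjusted p from 0.614 to 0.99996 (limma). It lost its unadjusted p under 0.05 in 4 of them: with median-of-ratios scaling and with each gene's own variance, where 0 of the 8 genes were higher at that level, and without wild type replicate 2 or leptin transgenic replicate 2. Over the fits that left out one library, that count ranged from 0 to 1, and the count of lower genes also from 0 to 1. REL, NFKB1 and TNFAIP3 kept their signs under all 14 alternatives. With one library left out RELA ranged from -0.032 to 0.12, NFKB2 from -0.30 to 0.039, NFKBIE from -0.12 to 0.15, NFKBIZ from -0.038 to 0.37 and the row listed as BIRC2 from -0.12 to 0.041. With median-of-ratios scaling RELA was -0.045 and NFKBIE -0.0052, and that scaling lowered the share of higher genes among all those with an unadjusted p under 0.05 from 62.5% to 40.1%. Without both replicate 1 libraries the row listed as BIRC2 was 0.033 and the median of the 8 genes 0.16, against -0.032 for all genes tested. The cause of these changes was not tested.

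Pathway genes with an unadjusted p under 0.05 in limma numbered from 1 to 5 (higher) and from 0 to 2 (lower) with one library left out, and 0 and 1 without both replicate 1 libraries. Target genes at that level numbered 3 higher and 2 lower with each gene's own variance, and from 4 to 6 and from 1 to 3 with one library left out, where the median of the list ranged from 0.0079 to 0.14. Libraries with the same number are of different animals, and the deviations of such pairs had correlations of -0.284, 0.135 and -0.0073. With the replicate number as a block NFKBIA was at 0.72 (unadjusted p = 0.0255, limma), 2 pathway genes were lower at the unadjusted p, and 1 target gene, CCL4, was called. FPKM without counts and 3 libraries per label limit what could be detected.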
